A study of Mus musculus with 2 samples.

Results

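The genes described here encode the voltage-gated calcium channels, the voltage-gated sodium channels and the HCN pacemaker channels of the embryonic heart ventricle. They were chosen by a rule on the symbol, which uses no measured value but was set with earlier results of these data known. The rule takes every row named Cacna1 with a letter, Cacna2d1 to Cacna2d4, Cacnb1 to Cacnb4, Cacng1 to Cacng8, Scn with a number and the letter a or b, or Hcn with a number. The table held 43 such genes among 23276 symbols. One sodium channel gene stands in it under the older symbol Scn2a1, which the rule does not take. Its level was 0.140 FPKM in KO and 0.0967 FPKM in WT.

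The samples were Fendrr KO ventricles, in which both alleles of the long non-coding RNA gene Fendrr had been removed by homologous recombination in embryonic stem cells, and wild-type (WT) ventricles. Both came from C57BL/6 x 129SV E12.5 embryos that were made by tetraploid complementation, where the embryo proper grows from the stem cells and tetraploid host cells form tissue outside it such as placenta. For each genotype 4 ventricles were pooled, ribosomal RNA was removed from their total RNA, and 1 strand-specific library was prepared. Each library was read on a run of its own, the WT run having stopped early with its bases called by hand, so that genotype, run and base calling cannot be told apart in any difference below. With 1 library per genotype no p-value can be given, and "higher" or "lower" says only how one library stood to the other.

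Levels are in FPKM, the fragments of a gene scaled to the length of its transcript and to the mapped fragments of the library, so that levels of different genes can be compared per length. The row under the older symbol of Fendrr, 1110050K14Rik, was listed at 0 in both libraries and gave no check of the genotype. The heart muscle content of the labelled tissue was checked with 11 markers of working cardiomyocytes. All were above 1 FPKM, and they summed to 21264 FPKM in KO and 21185 FPKM in WT. Single markers went both ways, with Tnnt2 at 2174 FPKM in KO and 1524 FPKM in WT, and Tnni3 at 443 FPKM in KO and 753 FPKM in WT. All 8 atrial cardiomyocyte markers also had a mean of at least 1 FPKM, summing to 5664 FPKM in KO and 6762 FPKM in WT. Of 7 skeletal muscle markers and 7 markers of retina and endocrine tissue, none had a mean of 1 FPKM. Of 7 liver and yolk sac genes 2 had, and that list summed to 20.8 FPKM in KO and 0.816 FPKM in WT. In pooled tissue, fewer cells of a type and less RNA per cell cannot be told apart.

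L-type calcium channels consist of a pore-forming alpha1 subunit with a beta subunit inside the cell and an alpha2delta subunit outside it. In skeletal muscle they also have a gamma subunit. In the heart the L-type channel carries the calcium current that triggers contraction, and T-type channels open at more negative voltages and are known from the fetal heart and from pacemaker cells. The sodium channel alpha subunit forms the pore that drives the upstroke of the action potential, and beta subunits modify it. HCN channels open when the membrane hyperpolarises, bind cyclic AMP and carry the pacemaker current, which the early embryonic ventricle still has.

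Of the 43 genes, 13 had a mean over the libraries of at least 1 FPKM, 2 lay between 0.5 and 1 FPKM, and 28 were lower. Each class of subunit had 1 to 3 genes in the group of 13. The 28 low genes together made up 2.48% of the summed FPKM of all 43 in KO and 3.39% in WT. The sum over all 43 was 63.4 FPKM in KO and 64.1 FPKM in WT.

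Depth limits how finely these levels can be compared. Low FPKM values of a gene are whole multiples of what 1 read is worth, and among 2213 genes with a mean under 0.3 FPKM and above 0 in both libraries, dividing KO by WT gave, in 69.3%, a quotient of whole numbers of at most 10 multiplied by 0.796, with a tolerance of 0.1%. From genes with 1 annotated transcript the libraries were estimated to hold about 16400000 mapped fragments in KO and 12900000 in WT. The totals were chosen to bring the largest share of such genes within 0.1 of a whole read. That share was 75.0% of 515 genes in KO and 74.6% of 453 in WT. Evenly spread values would give 20% at a total fixed beforehand. The factor 0.796 was likewise chosen for the largest share, so these percentages describe the fit and are not a separate check of it. On a transcript of 5 kb, 1 read was thus worth 0.0122 FPKM in KO and 0.0155 FPKM in WT. Read numbers and 95% counting intervals below are estimates from these totals and the longest annotated transcript, which makes the read numbers upper estimates. They cover counting error only, and not the differences between animals, pools or runs.

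**Figure D1:**
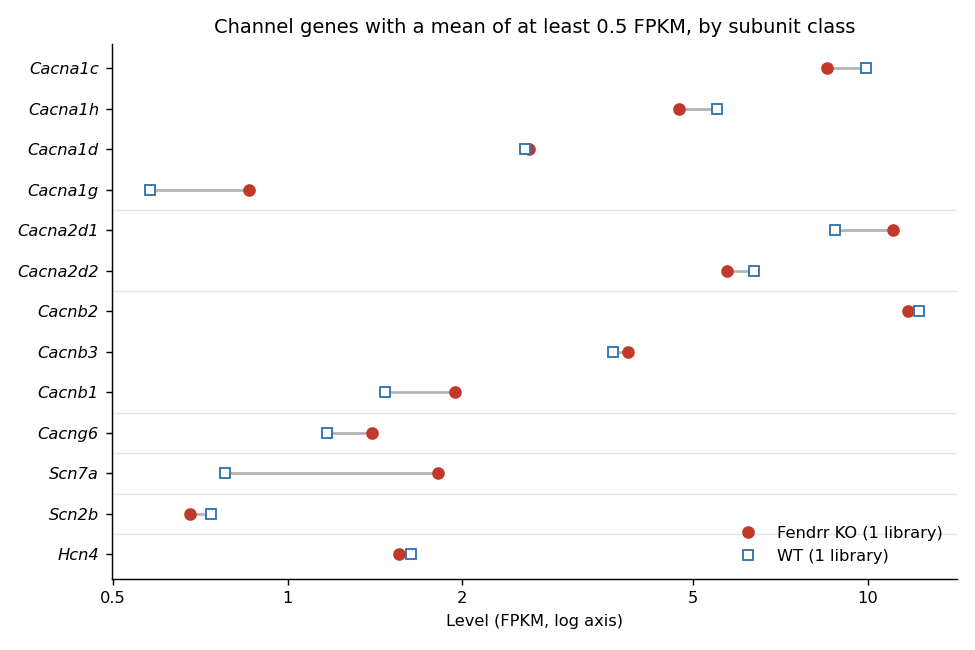
Level in FPKM, on a log axis, of 13 channel genes averaging 0.5 FPKM or more, grouped by subunit class, with the Fendrr KO library as filled circles and the WT library as open squares. The symbols of most genes lie close together, and the widest gap is that of Scn7a, at 1.82 FPKM in KO and 0.782 FPKM in WT.

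None of the 13 genes was at least 2-fold higher in KO and none at least 2-fold lower, on the scale log2((KO + 1)/(WT + 1)) in FPKM, which understates differences of low genes. Of all 11349 genes averaging 1 FPKM or more, the share that was 2-fold or more higher was 0.467%, and the share 2-fold or more lower was 0.388%. At 1.5-fold, 1 of the 13 genes was higher and 0 were lower, against 1.54% and 3.60% of all genes. The gene past 1.5-fold was Scn7a, which was under 1 FPKM in WT and reached a mean of 1 FPKM through its KO value, so that the filter depends on the difference counted and nothing is read from this count. The log2 ratios of the 13 had a median of 0.018, with Scn7a highest at 0.66, and the median of all genes was -0.11. With the median of all genes brought to 0, 62 of all genes were 2-fold or more higher and 25 lower, in place of 53 and 44, while the counts among the 13 were 0 in each direction as before. Against that median 9 of the 13 lay above and 4 below.

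**Figure D2:**
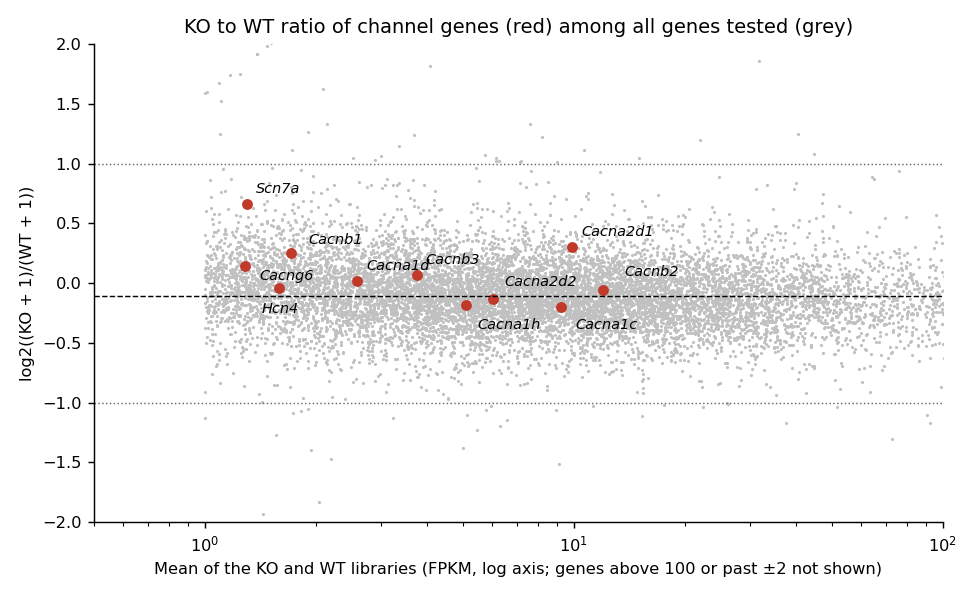
log2((KO + 1)/(WT + 1)) against the mean of both libraries in FPKM (log axis) for 11 channel genes (red, named) and all other genes tested (grey), with the median of all genes as a dashed line and the 2-fold limits dotted. The named channel genes lie inside the 2-fold limits, with Scn7a at 0.66 furthest up and Cacna1c at -0.20 furthest down.

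Among the pore-forming calcium channel genes, those of the L-type and T-type channels made up nearly all of the signal. Cacna1c, which encodes the main L-type pore of the heart, was at 8.51 FPKM in KO and 9.93 FPKM in WT. Cacna1d, the L-type pore known from sinoatrial and atrial cells, was at 2.61 FPKM in KO and 2.56 FPKM in WT. The level of Cacna1c was thus 3.26 times that of Cacna1d in KO and 3.87 times in WT. Cacna1h, a T-type pore, was at 4.72 FPKM in KO and 5.50 FPKM in WT, and was the second most abundant alpha1 gene in each library. Cacna1g, the other T-type pore of the heart, was at 0.858 FPKM in KO and 0.579 FPKM in WT, a FPKM ratio of 1.48 with a counting interval of 1.08 to 2.04, or 0.944 to 2.37 with read numbers 0.5 times as large. Its mean was under the 1 FPKM limit.

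Cacna1c and Cacna1h lay side by side in the comparison, with FPKM ratios of KO to WT of 0.857 for each. The level of Cacna1c was 1.80 times that of Cacna1h in KO and 1.80 times in WT. The counting interval of the ratio was 0.802 to 0.916 for Cacna1c and 0.765 to 0.961 for Cacna1h. Both intervals lie below 1 and both hold 0.915, the median FPKM ratio of all genes tested, so that neither pore gene was separated from the bulk of the transcriptome. Cacna1d had a ratio of 1.02 with an interval of 0.877 to 1.18.

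A start region is shown for Cacna1c because it is the most abundant pore gene here and is annotated with 3 separate starts, among which the table's single value per gene does not distinguish. The 250 bases before the second of them, from RefSeq on GRCm38 (chr6:119108496-119108745, minus strand), are printed 5′ to 3′ with matches to the searched motifs in capitals. They have 82.8% G and C and 48 CpG dinucleotides, against 51.6% and 2 before the first start and 50.4% and 5 before the third.
Cacna1c, second start: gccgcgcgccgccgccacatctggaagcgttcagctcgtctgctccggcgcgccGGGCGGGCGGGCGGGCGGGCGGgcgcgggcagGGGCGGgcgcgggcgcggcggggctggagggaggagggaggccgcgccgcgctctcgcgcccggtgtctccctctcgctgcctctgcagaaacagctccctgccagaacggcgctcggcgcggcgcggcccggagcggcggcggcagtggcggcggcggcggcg
The capitals are 6 matches to the GC box GGGCGG, of which 5 overlap in one run. No other motif searched was matched in these bases, nor was any in the 250 bases before the other two starts.

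Further alpha1 genes were low in both libraries. Cacna1a, the pore of the neuronal P/Q-type channel, was at 0.313 FPKM in KO and 0.343 FPKM in WT, and Cacna1e, of the R-type, at 0.0766 FPKM in KO and 0.0602 FPKM in WT. Cacna1b, the N-type pore, was listed at 0 in KO and at 0.0320 FPKM in WT, about 4 reads. Cacna1f, an L-type pore known from the retina, and Cacna1i, the T-type pore of the brain, had 0.0200 and 0.00621 FPKM in KO, or about 2 and 1 reads, while WT listed both at 0. Cacna1s encodes the L-type pore of skeletal muscle. It was at 0.0393 FPKM in KO and 0.247 FPKM in WT, a ratio equal to 1 KO read for each 5 WT reads before scaling and estimated at 4 and 20 reads. The counting interval of its FPKM ratio was 0.0396 to 0.475. The skeletal muscle markers summed to 0.564 FPKM in KO and 0.327 FPKM in WT, with Myf5, Myf6 and Pax7 at 0 in both, and their part in the result was not tested.

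The alpha2delta subunits, which raise the number of calcium channels at the cell surface, had 2 expressed genes, whose balance differed between the libraries. Cacna2d1 was at 11.0 FPKM in KO and 8.78 FPKM in WT, a log2 ratio of 0.30. Cacna2d2 was at 5.72 FPKM in KO and 6.37 FPKM in WT, a log2 ratio of -0.13. Cacna2d1 held 65.6% of the class's summed FPKM in KO and 57.6% in WT, and Cacna2d2 34.0% in KO and 41.8% in WT. The FPKM ratio of Cacna2d1 was 1.26 with an interval of 1.15 to 1.37, which lies above 1 and above the median of all genes. That of Cacna2d2 was 0.898 with an interval of 0.793 to 1.02, which holds both values. Cacna2d3 and Cacna2d4 were between 0.0105 and 0.0620 FPKM, estimated at 1 to 3 reads per library.

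The beta subunits bind the L-type alpha1 subunit inside the cell and bring it to the membrane. Cacnb2, the main beta gene of the heart, was the most abundant of all 43 genes in both libraries, at 11.7 FPKM in KO and 12.2 FPKM in WT. Its log2 ratio was -0.059 and was positive after median centring, upper-quartile scaling and quantile normalization. Cacnb3 was at 3.87 FPKM in KO and 3.63 FPKM in WT (log2 ratio 0.070). Cacnb1, the beta gene of skeletal muscle, was at 1.94 FPKM in KO and 1.47 FPKM in WT (log2 ratio 0.25). The interval of the Cacnb1 ratio was 0.959 to 1.83, which holds 1 and lies above the median of all genes, and with read numbers 0.5 times as large it was 0.836 to 2.11 and held both. Cacnb4, known mainly from the brain, was at 0.0926 FPKM in KO and 0.0957 FPKM in WT. Cacnb2 held 66.5% of the class in KO and 70.2% in WT.

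**Figure D3:**
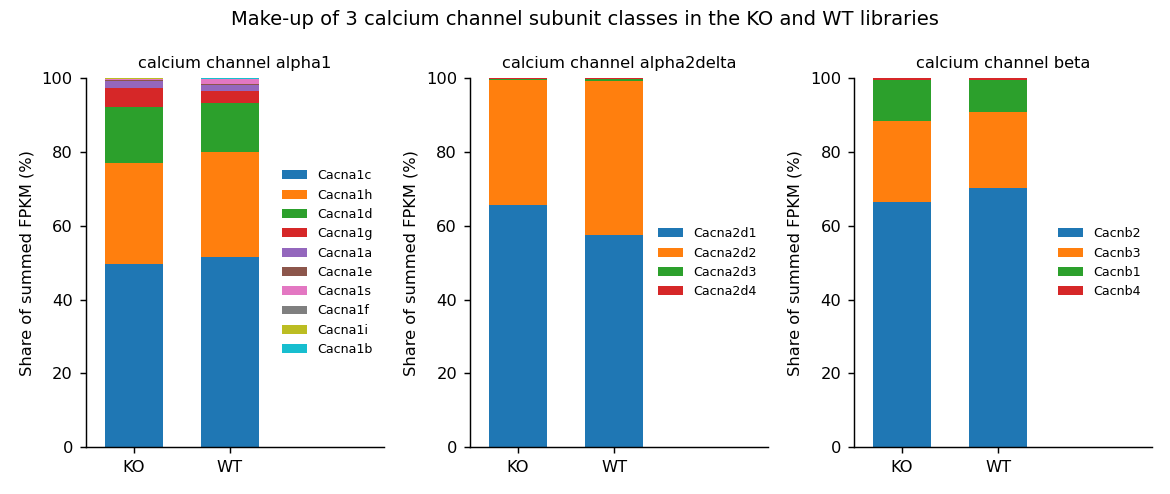
Share of the summed FPKM (%) that each gene holds in 3 calcium channel subunit classes, with the KO library as the left bar and the WT library as the right bar of each panel. In the alpha2delta panel Cacna2d1 stands at 65.6% in KO and 57.6% in WT, while the alpha1 panel has Cacna1c at 49.6% in KO and 51.6% in WT.

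Of the 8 gamma genes 5 were listed at 0 in both libraries, namely Cacng1, the gamma subunit gene of skeletal muscle, Cacng2, Cacng3, Cacng5 and Cacng8. Cacng2, Cacng3 and Cacng8 encode proteins better known as partners of AMPA receptors in neurons. Cacng6, a relative of Cacng1, was the expressed member, at 1.40 FPKM in KO and 1.17 FPKM in WT, with a ratio of 1.19 and an interval of 0.736 to 1.96. Cacng4 was listed at 0 in KO and at 0.466 FPKM in WT, about 21 reads if its long transcript was the one measured. Because a listed 0 may also stand for an estimate that failed, no fold is given. Cacng7 was at 0.0734 FPKM in KO and 0.0923 FPKM in WT, a ratio equal to that of as many reads in one library as in the other.

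Among the sodium channel alpha subunit genes, Scn7a was higher in KO than in WT by more than any other of the 13 expressed genes. Scn7a encodes an atypical member of the family, known as a sensor of the sodium concentration in glia rather than as a channel opened by voltage. It was at 1.82 FPKM in KO and 0.782 FPKM in WT, a log2 ratio of 0.66, and 1.14% of all genes tested reached that ratio. Its FPKM ratio was 2.32 with an interval of 1.78 to 3.07, from an estimated 218 reads in KO and 74 in WT. With a pseudocount of 0.1 in place of 1 its log2 ratio was 1.12, past the 2-fold limit, and 0 of the 13 genes passed that limit downwards. With that pseudocount 0.864% of all genes were past 2-fold upwards and 0.864% past 2-fold downwards. Scn7a is among the 13 only through its KO value, and its passing is a description of that gene.

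Among 8 markers of Schwann cells and glial precursors, which summed to 6.38 FPKM in KO and 6.83 FPKM in WT, Foxd3 was at 0 in both libraries. Fabp7 was at 2.95 FPKM in KO and 2.11 FPKM in WT, Sox10 at 0.112 FPKM in KO and 0.0282 FPKM in WT, and Cdh19 at 0.279 FPKM in KO and 0.250 FPKM in WT. Erbb3 was lower in KO, at 1.98 FPKM in KO and 3.54 FPKM in WT, as was S100b, at 0.220 FPKM in KO and 0.368 FPKM in WT. The part of such cells in the Scn7a value was not tested.

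The 250 bases before the RefSeq start of Scn7a are shown because it has the largest ratio of the expressed members (GRCm38, chr2:66784911-66785160, minus strand). They have 53.2% G and C and 3 CpG dinucleotides.
Scn7a: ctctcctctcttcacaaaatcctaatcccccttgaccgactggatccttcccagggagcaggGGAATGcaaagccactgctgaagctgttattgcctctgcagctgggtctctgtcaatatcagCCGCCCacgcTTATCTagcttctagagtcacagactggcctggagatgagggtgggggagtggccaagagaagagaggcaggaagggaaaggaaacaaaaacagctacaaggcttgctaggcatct
The capitals mark, in 5′ to 3′ order, 1 match each to the TEAD motif CATTCC, the GC box GGGCGG and the GATA motif AGATAA, at 188, 126 and 116 bases before the start and all on the opposite strand. Of 32851 promoters of this length, 12.6% hold CATTCC, 32.7% GGGCGG and 9.99% AGATAA on either strand. Of the member genes with an entry in the sequence table, Scn7a alone had a match to AGATAA. Such matches are letters in a window and do not show a bound factor.

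Further sodium channel alpha genes were near the limit of detection. Scn10a, known from sensory neurons, was at 0.114 FPKM in KO and 0.0834 FPKM in WT, and Scn8a, a neuronal channel, at 0.0162 FPKM in KO and 0.0204 FPKM in WT, about 3 reads each. Scn3a, a channel of the embryonic brain, was listed at 0 in KO and at 0.0879 FPKM in WT, about 11 reads. Scn1a, Scn4a, Scn9a and Scn11a were listed at 0 in WT and had 0.00620 to 0.0294 FPKM in KO, from about 1 read for Scn4a and Scn9a to about 4 for Scn1a. A gene at 1 to 4 reads in the deeper KO library and at 0 in WT is not shown to differ at this depth.

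Some of these genes are neighbours in the RefSeq annotation. On chromosome 2, Scn1a, Scn9a and Scn7a are neighbours, and of them only Scn7a passed 0.1 FPKM in either library. Cacng7, Cacng8 and Cacng6 are neighbours on chromosome 7, where Cacng6 was the gene with a mean above 1 FPKM. Other neighbours were alike in being low, namely Cacng1, Cacng4 and Cacng5 on chromosome 11 and Scn10a and Scn11a on chromosome 9, each with a mean under 0.5 FPKM.

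The sodium channel beta subunits are small membrane proteins that modify gating and attach the channel to neighbouring proteins. Scn2b was at 0.680 FPKM in KO and 0.737 FPKM in WT, with an interval of the ratio from 0.605 to 1.41 and a log2 ratio of -0.048 that was positive after median centring and upper-quartile scaling.

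The low beta genes stood on opposite sides of their WT levels. Scn3b was at 0.249 FPKM in KO and 0.0552 FPKM in WT, a ratio equal to 17 KO reads for each 3 WT reads and with an estimate of 17 and 3 reads. Scn4b was at 0.0143 FPKM in KO and 0.180 FPKM in WT, a ratio equal to 1 KO read for each 10 WT reads. The counting interval of the FPKM ratio was 1.30 to 24.0 for Scn3b and 0.00186 to 0.538 for Scn4b. With read numbers 0.5 times as large the interval of Scn3b held 1. Scn2b and Scn4b are neighbours on chromosome 9, and their FPKM ratios of KO to WT were 0.922 for Scn2b and 0.0796 for Scn4b. Scn4b is known from the adult conduction system. The 7 markers of ventricular conduction cells summed to 231 FPKM in KO and 271 FPKM in WT, and 0 of the 6 that passed the 1 FPKM limit were 2-fold apart on the scale log2((KO + 1)/(WT + 1)); their part in the result was not tested.

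Of the pacemaker channel genes, Hcn4 averaged above 1 FPKM. It encodes the main channel of the sinoatrial node and is also known from the early embryonic ventricle. It was at 1.55 FPKM in KO and 1.63 FPKM in WT, a log2 ratio of -0.043 that was positive after median centring and upper-quartile scaling. Its FPKM ratio was 0.953 with an interval of 0.750 to 1.21, from an estimated 156 reads in KO and 128 in WT. Hcn3, at 0.0932 FPKM in KO and 0.0469 FPKM in WT, and Hcn2, at 0.0381 FPKM in KO and 0.0239 FPKM in WT, rested on 1 to 6 estimated reads.

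Of 8 sinoatrial and pacemaker cell markers, 6 had a mean of at least 1 FPKM, of which 0 were 2-fold apart on the scale log2((KO + 1)/(WT + 1)), with a median log2 ratio of 0.088. The list summed to 32.4 FPKM in KO and 31.6 FPKM in WT. Smoc2 was at 5.56 FPKM in KO and 4.18 FPKM in WT, Tbx18 at 10.5 FPKM in KO and 9.57 FPKM in WT, Vsnl1 at 2.70 FPKM in KO and 2.33 FPKM in WT, and Bmp4 at 7.17 FPKM in KO and 6.86 FPKM in WT. These were higher in KO, while Rgs6, at 4.21 FPKM in KO and 4.86 FPKM in WT, was lower, and Tbx3 was at 0.963 FPKM in KO and 0.943 FPKM in WT. Also lower in KO, Shox2, a transcription factor gene of the sinus venosus, was at 0.802 FPKM in KO and 1.82 FPKM in WT, and Isl1, which is also known from second heart field cells, at 0.457 FPKM in KO and 1.03 FPKM in WT. Their part in the Hcn4 value was not tested.

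The 250 bases before the RefSeq start of Hcn4 are shown as those of the pacemaker gene described above (GRCm38, chr9:58822699-58822948, plus strand). They have 71.2% G and C and 25 CpG dinucleotides.
Hcn4: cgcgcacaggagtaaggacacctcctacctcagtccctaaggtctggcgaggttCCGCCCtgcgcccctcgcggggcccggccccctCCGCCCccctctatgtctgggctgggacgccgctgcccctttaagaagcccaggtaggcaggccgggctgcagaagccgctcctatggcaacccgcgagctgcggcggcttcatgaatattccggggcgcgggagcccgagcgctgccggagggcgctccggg
The capitals are 2 matches to the GC box GGGCGG on the opposite strand. Of the 43 genes 31 had an entry in the sequence table, with 41 starts in all. The median share of G and C was 63.2% over the 16 starts of members that averaged 1 FPKM or more, 58.0% over the 25 starts of lower members, and 52.4% over all promoters in the table. The motifs searched on both strands were the TATA box TATAAA (held by 12.4% of all promoters), AGATAA, the NKX2-5 motif TNAAGTG (10.1%), the T-box motif AGGTGTNA (2.68%), the MEF2 core CTANNNNTA (19.0%), CATTCC and GGGCGG. The GC box was found before 17 of the 41 member starts, CTANNNNTA before 8, CATTCC before 8, TNAAGTG before 4, TATAAA before 1 and AGGTGTNA before 0.

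**Figure D4:**
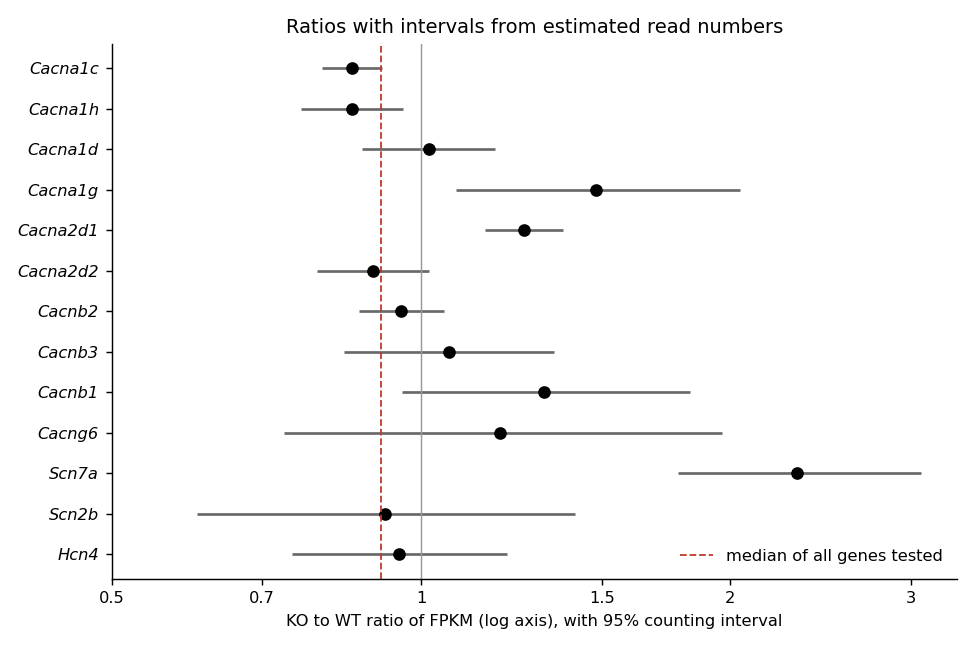
FPKM ratio of KO to WT (log axis) of 13 genes averaging 0.5 FPKM or more, with the 95% counting interval from estimated reads as a line, a grey line at 1 and the median of all genes tested, 0.915, as a dashed red line. The whole intervals of Scn7a at 2.32, Cacna1g at 1.48 and Cacna2d1 at 1.26 lie to the right of both lines.

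Set against counting error alone, the interval of the KO to WT ratio lay above the median ratio of all genes for 3 of the genes averaging 1 FPKM or more, Scn7a, Cacna2d1 and Cacnb1. It also did for Cacna1g and Scn3b, which averaged less. With read numbers 0.5 times as large, the intervals of Scn7a, Cacna2d1 and Cacna1g were still above that median and those of Cacnb1 and Scn3b were not. The count of 3 covers the upward side only, and no share of all genes with such an interval stands beside it. Scn7a is also counted only through its KO value, so nothing is read from the count. Since animals, pools and runs add spread that 1 library per genotype cannot show, an interval outside the median does not show an effect of the genotype.

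The 28 genes under 0.5 FPKM included 5 listed at 0 in both libraries, 3 listed at 0 in KO alone (Cacna1b, Cacng4 and Scn3a) and 6 listed at 0 in WT alone. The other 14 were above 0 in both, and for 14 of these the ratio matched a pair of whole read numbers up to 30 within 0.1%, a set dense enough that some matches can be coincidental. The interval held 1 for 11 of the 14, the exceptions being Cacna1s, Scn4b and Scn3b. No share of all low genes stands beside this count, and nothing is read from it. Scn4b rested on an estimated 1 read in KO and 12 in WT, and the Scn3b interval held 1 with read numbers 0.5 times as large. Many of the low genes are known from neurons. The 14 markers of neurons and autonomic neural crest summed to 17.9 FPKM in KO and 21.2 FPKM in WT, of which Gap43 made up 13.4 FPKM in KO and 16.4 FPKM in WT. Phox2a and Chrna3 were at 0 in both libraries.

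**Figure D5:**
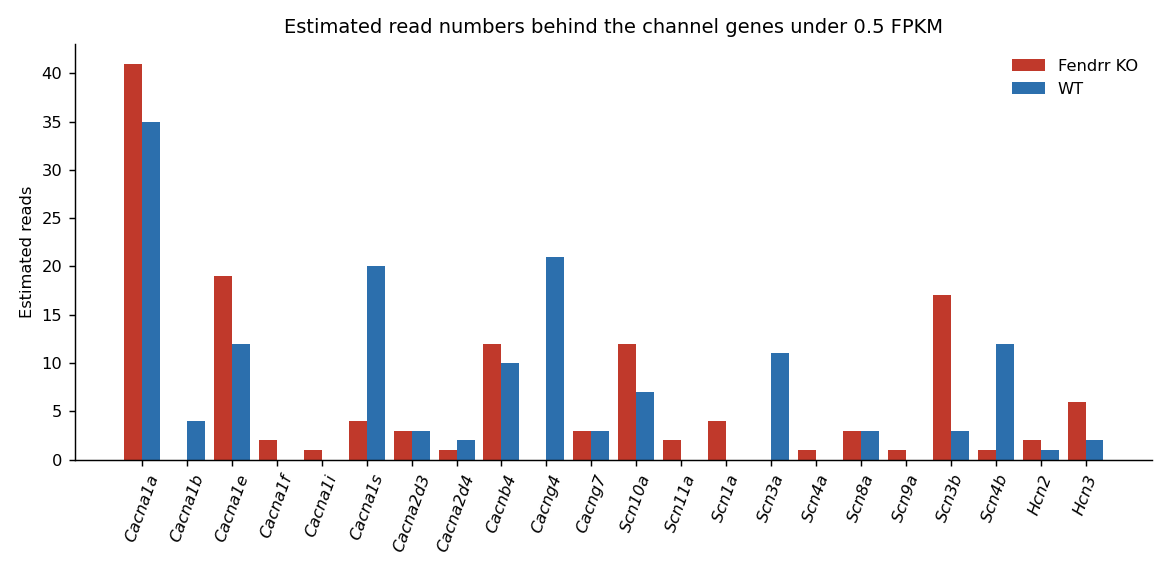
Estimated number of reads, from FPKM, the longest annotated transcript and the estimated library totals, behind 22 channel genes under 0.5 FPKM that were above 0 in at least 1 library, with KO as the left and WT as the right bar. Scn3b stands at 17 reads in KO and 3 in WT, and Cacna1s at 4 in KO and 20 in WT.

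Of the listed genes whose products act on these channels, 0 of those averaging 1 FPKM or more were 2-fold apart on the scale log2((KO + 1)/(WT + 1)), beside 0.467% of all genes higher and 0.388% lower. Of 19 calcium channel regulators 13 had a mean of at least 1 FPKM, with a median log2 ratio of -0.059, beside -0.11 for all genes. The calmodulin gene Calm2 was at 305 FPKM in KO and 317 FPKM in WT, Calm3 at 133 FPKM in KO and 177 FPKM in WT, and Bin1, which shapes the membrane folds where L-type channels gather, at 4.17 FPKM in KO and 5.67 FPKM in WT. Of 16 sodium channel regulators 12 were measured at that level, with a median of -0.11. Below 1 FPKM, Fgf11, one of the fibroblast growth factor homologous factors that bind sodium channels, was at 0.807 FPKM in KO and 0.113 FPKM in WT. It is named after its value was seen. Also below that level, Fgf12 was at 0.379 FPKM in KO and 0.426 FPKM in WT. Xirp2 was at 0.249 FPKM in KO and 0.198 FPKM in WT, and Fgf14 at 0.0431 FPKM in KO and 0.0271 FPKM in WT. Read numbers are not given for these genes, so none of them is shown to differ. The furthest from its WT level among the 12 was Rangrf, which helps sodium channels reach the membrane, at 9.73 FPKM in KO and 17.3 FPKM in WT (log2 ratio -0.77).

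Other sodium channel partners were closer. Gpd1l, whose human counterpart is tied to sodium current, was at 3.46 FPKM in KO and 5.25 FPKM in WT. The desmosome gene Pkp2 was at 33.3 FPKM in KO and 45.4 FPKM in WT, while Cav3, the caveolin of muscle, was at 35.5 FPKM in KO and 31.5 FPKM in WT. Rangrf, Gpd1l and Pkp2 thus had lower values in KO and Cav3 a higher one.

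Of 13 genes of HCN regulation and cyclic AMP supply 10 were measured, and their median log2 ratio was -0.20. The cyclic AMP-binding Popeye genes were among those furthest apart, with Bves at 24.4 FPKM in KO and 41.1 FPKM in WT (log2 ratio -0.73). Popdc2 was at 77.4 FPKM in KO and 102 FPKM in WT, and Popdc3 at 5.45 FPKM in KO and 7.93 FPKM in WT. Of 13 other cation channel genes and partners, 10 had a row and 3 reached 1 FPKM. Trpm7, a channel with a kinase domain, was at 20.7 FPKM in KO and 18.9 FPKM in WT, Trpm4, a cation channel opened by calcium, at 2.11 FPKM in KO and 2.68 FPKM in WT, and Tpcn1, an endolysosomal channel, at 2.59 FPKM in KO and 2.76 FPKM in WT. Their median was -0.067.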

How the data were processed

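The deposited values are FPKM, 1 per gene symbol and library. Per the submitters' processing notes the authors used Bowtie2 2.0.2, TopHat2 2.0.6 and Cufflinks 2.0.2 with the build mm9; the sources used here do not state the annotation and options. Per the labels' protocols 500 ng of total RNA of 4 pooled ventricles per genotype was depleted of ribosomal RNA, amplified for 15 cycles and read for 100 bases.

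Ratios were log2((KO + 1)/(WT + 1)) for genes averaging 1 FPKM or more, counted at 2-fold. No p-value was computed with 1 library per genotype. Read numbers were FPKM times the longest GENCODE vM21 transcript over the FPKM of 1 read per kb, which was set on genes with 1 transcript of over 500 bases. Counting intervals are exact 95% binomial intervals on those numbers. The longest transcripts and the sequences are on GRCm38, not on the build of the values. Members, partner and marker lists, motifs and rules were chosen with earlier results of these data known. Values were to be given for members of at least 0.5 FPKM and for up to 4 partners a list. Lower members, single markers and sodium channel partners under 1 FPKM were named after their values were seen. Some members and markers are not reported here. The depth estimates and ratios were checked on simulated reads, drawn and recovered with the same transcript lengths. Errors in those lengths could therefore not show, and the counting intervals and read numbers of members were not checked. Alternatives were pseudocounts of 0.1 and 5, no filter, a minimum mean of 5 FPKM, 3 scalings and 1.5-fold. Python 3.11.15, numpy 2.4.6, pandas 2.3.3 and matplotlib 3.10.9 were used.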

Additional observations from a re-analysis of the deposited data

How the results depend on the processing

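No paired analysis was possible because there was 1 library of each genotype, which also meant that neither could be left out. The members counted were 13, or 38 with no filter and 5 at a minimum mean of 5 FPKM. Of them, 0 passed the limit downwards under each of the 8 alternatives. Upwards, 1 (Scn7a) passed it with a pseudocount of 0.1 and when the limit was 1.5-fold, and 0 did under the other 6. Some alternatives could not raise these counts. A pseudocount of 5 only shrinks ratios, and a minimum mean of 5 FPKM only removes members. The members added with no filter were under 1 FPKM in each library, where the main scale cannot reach 2-fold. The log2 ratio of Scn7a ran between 0.24 (pseudocount 5) and 1.12 (pseudocount 0.1). Of 15 members of at least 0.5 FPKM, 12 kept their sign under the alternatives that gave them a ratio and 3 (Cacnb2, Scn2b and Hcn4) did not; a minimum mean of 5 FPKM gave one for 5 of the 15, and 1.5-fold changes no ratio. The signs of those 3 turned only under scalings between the libraries. The median of the members was 0.024 with a pseudocount of 0.1, 0.0083 with 5, 0.0089 with no filter (38 members), -0.13 at a minimum mean of 5 FPKM (5 members), 0.13 with the median of all genes brought to 0, 0.11 with upper-quartile scaling and 0.088 with quantile normalization. Over all genes, higher and lower ones numbered 98 and 98 with a pseudocount of 0.1, 16 and 17 with 5, and 175 and 408 at 1.5-fold, against 53 and 44. Higher ones numbered 26 at a minimum mean of 5 FPKM. Lower ones numbered 25 with the median brought to 0, beside 62 higher, 27 with upper-quartile scaling, beside 64 higher, and 27 with quantile normalization, beside 62 higher. Read numbers 0.5 times as large, chosen after seeing the data, brought the median ratio of all genes inside the interval of Cacnb1. The cause of these changes was not tested.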
